A study of Homo sapiens with 9 samples.

Results

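SK-N-AS is a human neuroblastoma line, and its cultures were read on Affymetrix expression arrays at the start of a time course and again 48 h later. The comparison takes the 3 arrays of 48 h and the 3 arrays of 0 h, which are 6 of the 9 arrays of the study, and pairs them by series. The series labelled RE-EX1 received a construct for full-length NRSF, the series labelled HZ4 a construct for truncated NRSF, and the third series is labelled UNTREATED. All 3 grew in DMEM with fetal bovine serum, antibiotics, non-essential amino acids and glutamine, and the labels do not say whether medium was changed between 0 and 48 h. What the 3 series share is therefore time in culture, with or without a construct. Each series has 1 array per time and gives 1 difference. The description speaks of triplicate samples and several batches, while no label numbers a batch or a replicate or says whether RNA was pooled. The p-values thus rest on the spread among these arrays alone, which may be technical. In RNA from a whole culture, fewer cells of a kind and less RNA per cell cannot be told apart.

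NRSF, the product of REST, is a zinc finger repressor that keeps neuronal genes silent through RE1 elements. Neuroblastoma cells are known in a sympathoadrenal state, marked by factors such as GATA3, and in a mesenchymal state rich in vimentin, matrix and SNAI2. Growing cultures are known to use up nutrients and to collect secreted factors. Stressed cells share a few programs, among them the integrated stress response, in which ATF4 induces amino acid transporters, and the NRF2 program of antioxidant enzymes. Cells that slow their division lower the genes of mitosis, many of which carry a CHR element and CCAAT boxes near their start.

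The median signal of the 6 arrays was 30.82 to 36.92 at 0 h and 32.44 to 34.22 at 48 h. The ratio of 3' to 5' ACTB control probe sets, a sign of RNA integrity, went from 4.19 to 2.49 with full-length NRSF, from 2.25 to 2.84 with truncated NRSF and from 2.72 to 3.47 in untreated cells. It was highest on the full-length array of 0 h, did not move one way over the series, and its part in the results was not tested. Of the markers of the line, the mesenchymal ones were bright, with VIM, the intermediate filament vimentin, at 11380 to 14400 and CD44 at 3953 to 4275 at 0 h. GATA3, a sympathoadrenal factor, stood at 1656 to 1861, whereas the catecholamine enzymes TH and DBH read at most 43.37 and 33.53.

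Between 0 and 48 h, 22 of 50 mitosis genes and 11 of 32 matrix genes were called down, and none of either list was called up. In turn, 12 of 37 genes of the integrated stress response and 6 of 24 antioxidant genes were called up, and none was called down. The lists were chosen with earlier results of these data known, and SLC7A11 counts in both of those with genes called up. Single cytokines, IL24 and IL11 among them, rose steeply. A gene was read by its brightest probe set and called when the paired limma fit gave an adjusted p (Benjamini-Hochberg) under 0.05. Of 13813 genes tested, 7.93% were called: 542 rose (3.92%) and 553 fell (4.0%), and 3179 had an unadjusted p under 0.05. The sign was the same in all 3 series for 1086 of the 1095 called genes, which the test favours, and for 43.38% of all genes. At 2-fold or more in each series 120 genes were higher (0.869%) and 113 lower (0.818%), and 130 genes met both this and the test. A single gene has only 2 residual degrees of freedom, and without the mean-variance trend of the fit, or with no filter on low signals, limma called 0 genes.

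**Figure D1:**
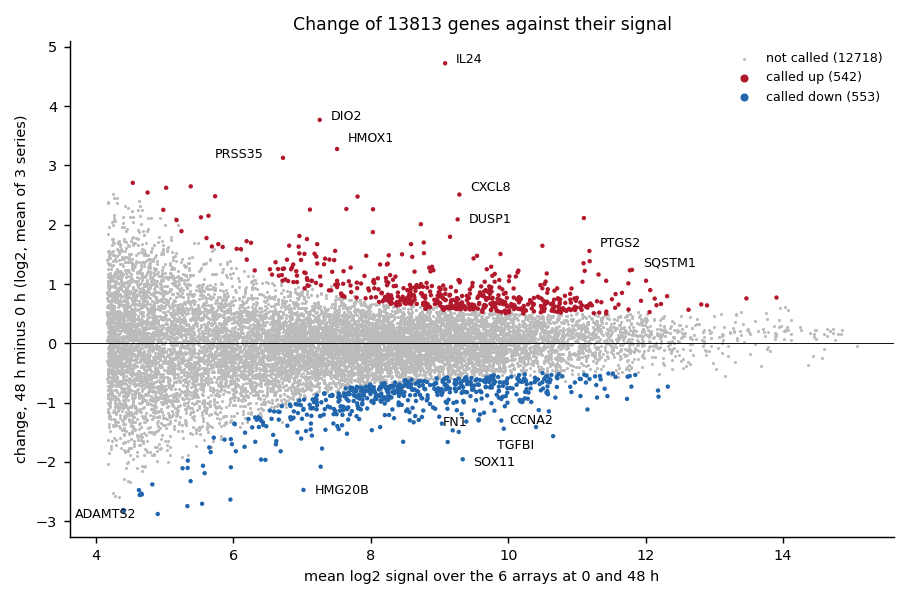
Change from 0 to 48 h (log2, mean of 3 series, vertical axis) against mean log2 signal over the 6 arrays (horizontal axis) for 13813 genes, each a point, with 542 called up in red and 553 called down in blue. Dim genes scatter widely and are seldom called: 979 of the 1095 called genes have a mean log2 signal over 7.

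Over probe sets rather than genes 2016 of 32768 were called (6.15%), 2001 of them with the same sign in all 3 series. A series left out of the fit gives a view of agreement that does not use the trend for its own values. It is not fully apart, since the floor and the filter on low signals were set on all 6 arrays. The left-out series thus had a part in which probe sets could be called, and in the mean signal that splits bright from dim. Probe sets were called from 2 series and then read in the series left out. Of 32768 probe sets, 1812 (5.53%) were called without the full-length series, and 1626 of these (89.74%) had the same sign in it. The same held for 1388 of 1492 (93.03%; 4.55% called) in the truncated series and for 1581 of 1738 (90.97%; 5.3% called) in untreated cells. Over all probe sets, called or not, the left-out series had the sign of the others in 61.18% to 61.97%. Sizes were smaller where they had not been selected: probe sets called up had a median change of 0.64, 0.73 and 0.63 (log2) in the left-out full-length, truncated and untreated series, against 0.89, 0.89 and 0.96 in the series that made the calls. Among bright probe sets (mean log2 signal over 7) the share was 90.52% to 93.88% of those called and 68.9% to 70.53% of all. Among dim probe sets (mean log2 signal of 7 or less) it was 81.69% to 85.53% of those called and 55.59% to 55.98% of all. Selection by size alone did much less, since probe sets at 2-fold or more in both other series kept their sign in 63.75%, 65.17% and 68.85%.

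**Figure D2:**
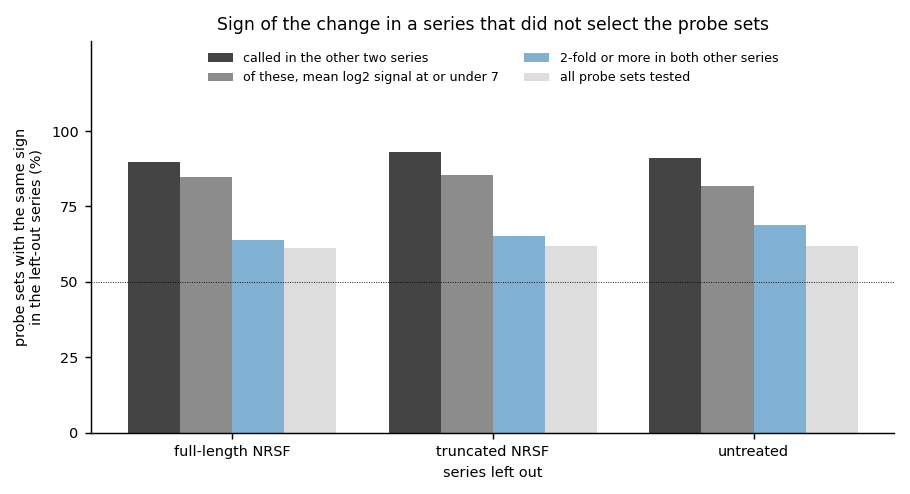
Percent of probe sets whose change had the same sign in the series left out (3 groups of bars) as in the series that selected them. Probe sets called in the other series reach 89.74% to 93.03%, the dim ones among them 81.69% to 85.53%, those at 2-fold or more in both other series 63.75% to 68.85%, and all probe sets 61.18% to 61.97%.

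Within single series 2-fold differences were common. They covered 18.16% of genes from 0 to 48 h with full-length NRSF, 19.13% with truncated NRSF and 17.74% in untreated cells. Between pairs of 0 h arrays 13.18% to 14.74% of genes differed as much, and between pairs of 48 h arrays 13.91% to 15.23%. Below, signals are given in the order full-length, truncated and untreated. A change is the mean of the 3 differences in log2 signal (48 h minus 0 h, n = 3 pairs), and p is limma's adjusted p. The ± is the standard error of the fit. Its variance is mostly borrowed from probe sets of like signal (median total degrees of freedom 20.94, residual 2). It is not the spread of a gene's own 3 differences. Their standard deviation was, for example, 1.893 in RASA3 (± 0.53) and 0.04 in ERRFI1 (± 0.151). Unless stated otherwise, a gene given with its own values was also called without each series in turn. The choice of probe set mattered too. Of 226 called genes that were named or belonged to a list, 138 stayed called when all probe sets of a gene were averaged. Of the 169 with a tested probe set free of the suffixes _x_at and _s_at, which mark shared sequence, 137 stayed called on it. Where either rule ended the call of a gene given here, its value follows as the averaged or the unshared value. List counts are given beside 3.92% of all genes called up and 4.0% called down. In these counts, rose and fell mean called up and called down, and uncalled members could go the other way. For example, 3 integrated stress response genes were lower in all 3 series (19 higher), and 2 matrix genes were higher (18 lower). The lists were chosen with earlier results of these data known, so a share above these is no independent evidence.

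Secreted cytokines held the largest rise. IL24, a cytokine of the IL10 family, read 118.9, 113 and 87.2 at 0 h and 2512, 2989 and 2877 at 48 h. The times stand far apart and the 3 series lie close together at each, with a change of 4.72 ± 0.175 (26.4-fold, adjusted p = 3.1e-13). IL11, which signals through gp130, read 111, 127.3 and 121.3 at 0 h and 625.6, 671.8 and 448.6 at 48 h. It rose by 2.26 ± 0.21 (adjusted p = 1.6e-06) with no overlap. SOCS3, the feedback inhibitor of gp130 signalling, fell by 1.14 ± 0.20 (adjusted p = 0.0015), from 557.1, 645.4 and 445.7 to 194.5, 254.3 and 301.5. IL6 rose by 1.22 ± 0.34 (adjusted p = 0.038), from 112, 97.86 and 45.32 to 162.6, 151.1 and 253.8, and without the untreated series its change was 0.58 (adjusted p = 0.45). Averaged values were -0.81 for SOCS3 (adjusted p = 0.081) and 1.22 for IL6 (0.079). These were all the called genes among 21 tested IL6 and IL10 family cytokines and receptors, and the median change of that list was -0.0001, against -0.01 over all genes.

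Of 16 tested chemokines and their receptors only CXCL8, which draws neutrophils, was called, and the list's median was -0.09. Its probe set is of a kind that may cross-hybridize, and it read 326.1, 173.8 and 318.3 at 0 h and 1142, 1339 and 2176 at 48 h, a change of 2.51 ± 0.20 (adjusted p = 9e-08). On the 24 h arrays, which enter no test here, CXCL8 was at 3045, 3771 and 5031, above every 48 h array. EREG and NRG1 are ligands of the EGF receptor family. EREG rose by 2.25 ± 0.32 (adjusted p = 0.00014), from 76.3, 41.4 and 80.88 to 321.1, 408.8 and 211.7. NRG1 rose by 1.67 ± 0.19 (adjusted p = 1.3e-05), from 232.5, 202.6 and 211.6 to 730.5, 830 and 532.3. In both genes all 48 h arrays lay above all 0 h arrays. Of the 4 tested probe sets of NRG1 only this 1 was called, and the unshared value was 0.01 (adjusted p = 0.99) and the averaged one 0.90 (0.071).

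Prostaglandin genes were called in 2 of 17 cases, both up, with a median of 0.05. PTGS2, the inducible cyclooxygenase, read 926.8, 1136 and 2357 at 0 h and 3428, 4864 and 3789 at 48 h, a change of 1.56 ± 0.20 (adjusted p = 5.6e-05). Untreated cells began highest, and the times did not overlap. HPGD, which degrades prostaglandins and is read by a probe set that may cross-hybridize, rose by 1.76 ± 0.27 (adjusted p = 0.0004). Of 29 genes of activin and TGF-beta signalling 3 rose and 1 fell, with a median of 0.12. INHBA, the subunit of activin A, rose by 1.72 ± 0.37 (adjusted p = 0.0071), GREM1, a BMP antagonist, by 1.46 ± 0.28 (0.0028) and ID4, an inhibitor of bHLH factors, by 1.14 ± 0.22 (0.0034). SMAD1, which carries BMP signals, fell by 0.595 ± 0.15 (adjusted p = 0.02), and missed the threshold without the full-length series (adjusted p = 0.089). Averaged values were 1.45 for INHBA (adjusted p = 0.1) and 0.80 for ID4 (0.15).

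**Figure D3:**
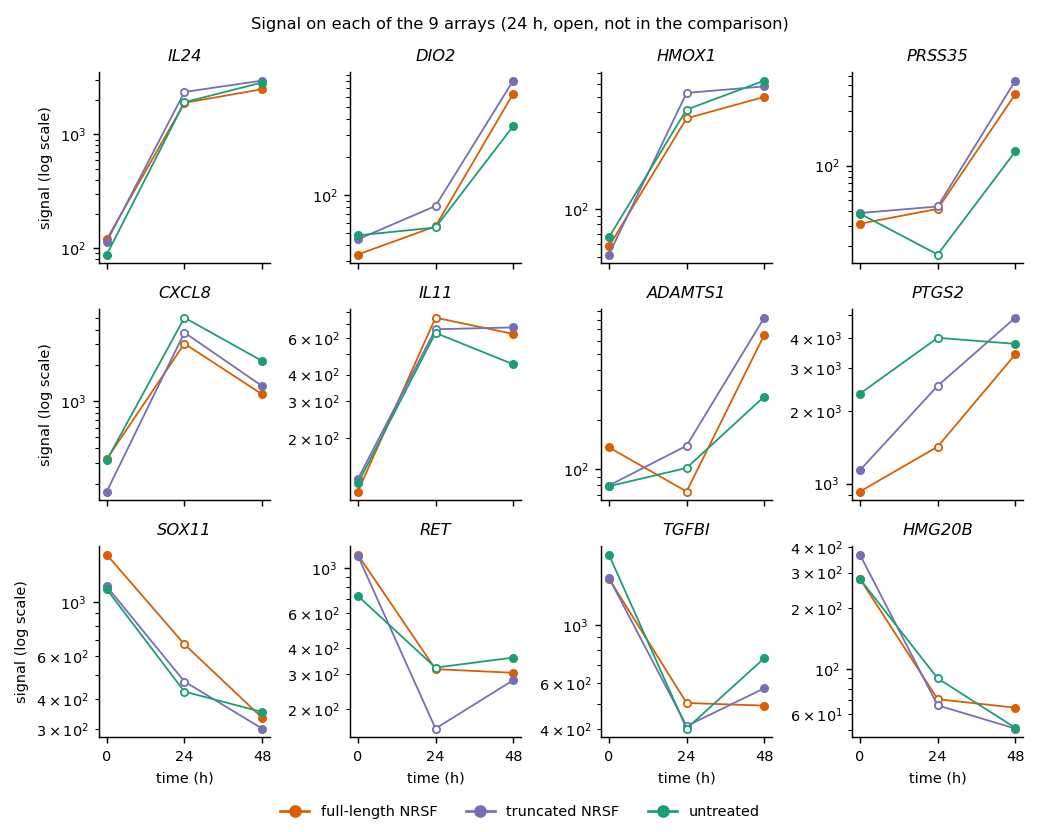
Signal (log scale, vertical axes) against time in hours for 12 genes, 1 panel each, with orange for full-length NRSF, purple for truncated NRSF and green for untreated cells. Filled points at 0 and 48 h are compared and open points at 24 h are not: IL24 read 1902 to 2373 at 24 h, while DIO2 read 55.11 to 81.63 there and 351.3 to 806.4 at 48 h.

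Some of the largest rises were in genes whose 24 h arrays still read near the level of 0 h. DIO2, the deiodinase that makes active thyroid hormone, read 33.63, 44.35 and 47.69 at 0 h, 56.25, 81.63 and 55.11 at 24 h and 634.9, 806.4 and 351.3 at 48 h. Its change from 0 to 48 h was 3.77 ± 0.29 (13.6-fold, adjusted p = 9e-08). PRSS35, a secreted protein related to serine proteases, read 31.11, 38.54 and 38.06, then 41.89, 43.96 and 16.77, then 418.6, 549.2 and 132.5. It rose by 3.13 ± 0.37 (adjusted p = 2e-05). ADAMTS1, a metalloprotease that cleaves proteoglycans, read 135.8, 79.83 and 79.08, then 73.49, 139 and 102, then 649.2, 824.8 and 275.3, a rise of 2.48 ± 0.26 (adjusted p = 4.9e-06). In these 3 genes untreated cells ended lowest, every 48 h array lay above every 0 h array, and the difference between series was not tested.

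Of the 15 largest rises 7 were in dim genes. RSPO3, a secreted enhancer of WNT signalling, rose by 2.65 ± 0.54 (adjusted p = 0.0046), and DLX2, a homeobox gene of the forebrain and neural crest, by 2.48 ± 0.50 (0.0041). Each had a 0 h array below the floor of 7.959, where signals were set to the floor. C11orf96 rose by 2.26 ± 0.23 (adjusted p = 4.5e-06), from 70.94, 107 and 100.1 to 449.5, 452.6 and 415.3. The homeobox gene EMX1 (2.71 ± 0.75, adjusted p = 0.034) was at the floor on 2 of the 0 h arrays and was not called in any fit of 2 series (adjusted p = 0.083, 0.14 and 0.06). SBF2-AS1 (2.54 ± 0.70, 0.032) and KLHL25 (2.25 ± 0.65, 0.042) were lost without the truncated series (adjusted p = 0.15 and 0.073) and without the untreated series (0.069 and 0.26). ASMTL-AS1 (2.62 ± 0.62, 0.013) was lost without the truncated series (adjusted p = 0.087), and its unshared value was 1.07 (0.57). Averaged values were 1.43 for DLX2, 0.94 for SBF2-AS1, 2.25 for KLHL25 and 1.85 for ASMTL-AS1 (adjusted p = 0.13, 0.45, 0.054 and 0.14).

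Immediate early genes, which growth factors and stress switch on quickly, were higher at 48 h for 7 of 26 tested members, against 3.92% of all genes, with 0 lower and a median change of 0.40, and 3 of the 7 were called without each series in turn. PPP1R15A, a regulatory subunit that directs a phosphatase to eIF2 alpha, also belongs to the integrated stress response. It read 321.6, 333.3 and 266.2 at 0 h and 1302, 840.5 and 1092 at 48 h. It rose by 1.80 ± 0.18 (adjusted p = 3e-06). KLF4, a zinc finger factor, rose by 1.46 ± 0.19 (adjusted p = 6.7e-05), from 269.2, 177.2 and 270.9 to 651.9, 658.1 and 626.2, and the nuclear receptor NR4A2 by 2.12 ± 0.51 (0.014). ATF3, a stress-induced repressor, rose by 1.41 ± 0.38 (adjusted p = 0.027), but by 0.60 without the untreated series (adjusted p = 0.38). NR4A3 rose by 2.15 ± 0.53 (adjusted p = 0.016), and by 1.36 without the truncated series (0.17). Averaged values were 1.24 for ATF3 (adjusted p = 0.08) and 1.504 for NR4A3 (0.12), and the unshared value of ATF3 was 1.07 (0.45). FOS, by contrast, read 126.8, 81.9 and 45.59 at 0 h and 106.1, 65.98 and 80.91 at 48 h, with a change of 0.09 ± 0.37 (adjusted p = 0.93). On the 24 h arrays FOS was at 314.7, 426.4 and 324.4.

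Feedback genes of ERK signalling and ligands of the EGF receptor family shared a list, here the ERK feedback list. Of its 27 tested members 6 rose, EREG and NRG1 among them, and 5 fell. The 5 called without each series in turn all rose: DUSP1, DUSP5, ERRFI1, EREG and NRG1. DUSP1, a phosphatase of MAP kinases, rose by 2.09 ± 0.16 (adjusted p = 9e-08), from 393, 281.7 and 239.1 to 1551, 1308 and 1006. ERRFI1, an inhibitor of the EGF receptor, rose by 1.05 ± 0.15 (adjusted p = 0.00018), from 698.4, 722 and 729.3 to 1417, 1544 and 1493, and the phosphatase DUSP5 by 1.02 ± 0.19 (0.0024). The 3 series nearly coincided at each time in ERRFI1 and DUSP5. The cytosolic ERK phosphatase DUSP6 fell by 0.90 ± 0.21 (adjusted p = 0.011), and by 0.49 without the truncated series (adjusted p = 0.15). SPRY1 and SPRY2, inhibitors of receptor signalling, fell by 0.54 ± 0.15 and 0.64 ± 0.17 (adjusted p = 0.041 and 0.031), and both missed the threshold without the full-length series (adjusted p = 0.23 and 0.11). SPRY1 also missed it without the untreated series (adjusted p = 0.08) and SPRY2 without the truncated series (adjusted p = 0.15). PHLDA1 fell by 0.61 ± 0.16 (adjusted p = 0.029) on its brightest probe set, while its 5 other probe sets tested had the opposite sign, and it was lost without the full-length series (adjusted p = 0.077) and without the truncated series (0.18). Averaged values were -0.66 for SPRY1, -0.64 for SPRY2 and 0.28 for PHLDA1 (adjusted p = 0.051, 0.07 and 0.27).

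Of 37 genes of the integrated stress response and amino acid supply 12 rose and 0 fell, with a median of 0.21. On unshared probe sets 8 of 26 rose and the median was 0.0275. SLC7A11, the cystine transporter, read 131.9, 111.8 and 214 at 0 h and 430.4, 340.7 and 463.1 at 48 h, a rise of 1.48 ± 0.21 (adjusted p = 0.0002). SLC7A5, a carrier of large neutral amino acids, rose by 1.34 ± 0.20 (adjusted p = 0.00021), from 188.1, 173.2 and 213.2 to 540.4, 456.8 and 459.2. For both transporters the times did not overlap. STC2, a secreted glycoprotein, rose by 1.27 ± 0.19 (adjusted p = 0.0003) and DDIT3, the factor CHOP, by 1.10 ± 0.20 (0.0016), from 196.3, 221.1 and 194.4 to 424.8, 407 and 482. ATF4 itself rose by 0.69 ± 0.15 (adjusted p = 0.0078), although its 0 h value with truncated NRSF (2190) lay above its 48 h value with full-length NRSF (2169). Leaving out any series left 9 of the list called up, and 7 of the 12 were called in every such fit. SLC3A2, the partner of SLC7A5, was among those that were not: it rose by 0.60 ± 0.17 (adjusted p = 0.035), and had an adjusted p of 0.17, 0.051 and 0.056 in the fits of 2 series.

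The window of 250 bases before the start of PPP1R15A is shown because this gene belongs to both the immediate early and the integrated stress response lists and holds the cyclic AMP response element searched for. It is RefSeq sequence of build GRCh38.p14, chr19:48872171-48872420 on the plus strand, with the element TGACGTCA in capitals, 58 to 51 bases before the start.
PPP1R15A: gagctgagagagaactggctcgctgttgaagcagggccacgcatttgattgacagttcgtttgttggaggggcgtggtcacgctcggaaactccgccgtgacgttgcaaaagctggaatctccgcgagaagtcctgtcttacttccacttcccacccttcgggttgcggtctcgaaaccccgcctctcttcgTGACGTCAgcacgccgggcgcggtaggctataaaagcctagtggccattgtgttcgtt
In windows from 250 bases before to 50 bases after the start, searched on both strands, TGACGTCA was present in 3 of the 18 immediate early genes with a window (16.7%) and in 3.1% of the 11166 tested genes with one. The AP-1 motif TGANTCA was in 1 of the 18 (5.56%) and in 4.76% of all. The amino acid response motif TGATGNAAN was in 7 of 31 integrated stress response genes with a window (22.6%) and in 2.02% of all. These are matches of letters, not measured binding.

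NRF2 antioxidant genes rose in 6 of 24 cases and fell in 0, with a median of 0.30, and 4 of the 6 were called without each series in turn. The 6 include SLC7A11, given above with the integrated stress response, and SQSTM1, which also counts in the lysosome and autophagy list. HMOX1, heme oxygenase, had the third largest rise of all, 3.28 ± 0.24 (9.70-fold, adjusted p = 5e-08), from 58.27, 51.87 and 66.36 to 499.1, 580.5 and 630.9. GCLM, the modifier subunit of glutathione synthesis, rose by 1.04 ± 0.15 (adjusted p = 0.00025), from 1193, 881.3 and 1074 to 2110, 2221 and 2101. SQSTM1, the autophagy receptor p62, rose by 1.24 ± 0.16 (adjusted p = 4.6e-05), from 2809, 2421 and 1845 to 5719, 5500 and 5240. In all 3 genes the 48 h arrays were close to each other and above every 0 h array. ME1, which makes NADPH, rose by 0.69 ± 0.16 (adjusted p = 0.012) and AKR1C1, on a probe set that may cross-hybridize, by 0.94 ± 0.20 (0.0069), and both missed the threshold without the truncated series (adjusted p = 0.15 and 0.074). Of the 5 tested probe sets of SQSTM1 only 1 was called and 1 had the opposite sign. Its unshared value was 0.31 (adjusted p = 0.45) and its averaged one 0.62 (0.11), and the averaged value of AKR1C1 was 0.705 (0.25).

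The window before GCLM is shown because it holds the antioxidant motif and GCLM rose in every series. It lies at chr1:93909431-93909680 of GRCh38.p14 on the minus strand, with the match to TGACNNNGC, here read from the opposite strand, in capitals 34 to 26 bases before the start.
GCLM: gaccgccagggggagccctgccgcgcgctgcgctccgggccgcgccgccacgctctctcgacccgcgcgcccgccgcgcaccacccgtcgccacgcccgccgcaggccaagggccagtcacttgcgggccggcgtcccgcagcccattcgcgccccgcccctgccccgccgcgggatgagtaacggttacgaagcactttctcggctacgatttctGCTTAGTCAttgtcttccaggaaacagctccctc
The motif was in 4 of 18 NRF2 list genes with a window (22.2%) and in 15.4% of all 11166 windows.

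Proteasome subunits rose in 6 of 27 cases and fell in 0, and the lowest change among the 27 was 0.04, with a median of 0.35. PSMC6, an ATPase of the regulatory particle, read 1590, 1493 and 1474 at 0 h and 2274, 2510 and 2546 at 48 h, a rise of 0.685 ± 0.15 (adjusted p = 0.0074), and PSMD8 rose by 0.85 ± 0.18 (0.0075). Without the untreated series only 2 of the 27 were called, and 2 of the 6 were called in every fit of 2 series. Averaged, 3 of the 27 rose. PSMD2, for one, changed by 0.27 without the untreated series (adjusted p = 0.58) against 0.68 ± 0.20 in all 3 series (0.04). In the averaged fit PSMD2 had an adjusted p of 0.11. Lysosome and autophagy genes rose in 7 of 33 cases and fell in 1, and 2 of these 8 were called without each series in turn. CTSL, cathepsin L, rose by 0.77 ± 0.16 (adjusted p = 0.0044), from 866.1, 862.7 and 762.7 to 1236, 1523 and 1505. GABARAPL1, an autophagosome protein, rose by 1.59 ± 0.40 (adjusted p = 0.018), and had an adjusted p of 0.068 without the untreated series. NPC2, a lysosomal cholesterol carrier, fell by 0.55 ± 0.16 (adjusted p = 0.048), and missed the threshold without the full-length series (0.3) and without the truncated series (0.096), and in the averaged fit (0.082). Of 16 cytosolic heat shock genes 3 rose, led by HSPB8, a small heat shock protein, at 1.501 ± 0.18 (adjusted p = 3.7e-05). The unshared value of HSPB8 was 0.12 (adjusted p = 0.95) and its averaged one 0.81 (0.084). HSPH1, a cochaperone of HSP70, rose by 0.72 ± 0.15 (adjusted p = 0.006), but its probe set free of the suffixes for shared sequence gave -0.22 (adjusted p = 0.72), and its averaged value was 0.405 (0.1).

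Of 24 chaperones of the endoplasmic reticulum 7 fell and 3 rose, with a median of -0.45, and 5 of these 10 were called without each series in turn. PDIA4, a disulfide isomerase, fell by 1.41 ± 0.20 (adjusted p = 0.00013), from 1533, 2902 and 2427 to 804.7, 615.5 and 1156, and its unshared value was -0.37 (adjusted p = 0.25). SDF2L1 fell by 1.11 ± 0.19 (adjusted p = 0.0011), from 459.5, 492.3 and 454.5 to 182.7, 251.7 and 220, and CRELD2 by 0.81 ± 0.18 (0.0087). HSP90B1, the chaperone GRP94, fell by 0.92 ± 0.15 (adjusted p = 0.00074) on a probe set that may cross-hybridize. Each of these 4 fell in all 3 series. DNAJB9, a cochaperone of BiP, rose by 0.80 ± 0.16 (adjusted p = 0.0037). ERN1, the stress sensor IRE1, rose by 0.93 ± 0.21 (adjusted p = 0.0088), was lost without the full-length series (adjusted p = 0.061) and changed by -0.06 as a mean of its probe sets. CALR, calreticulin, was called up at 1.07 ± 0.29 (adjusted p = 0.03) on a probe set that may cross-hybridize, with overlapping times, and gave -0.20 on another (adjusted p = 0.66). On the called probe set CALR fell by 0.49 with full-length NRSF and rose by 1.905 with truncated NRSF and by 1.785 in untreated cells. Without the truncated series it missed the threshold (adjusted p = 0.099), and its averaged value was 0.29 (0.62).

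Of the 42 lists, genes of mitosis held the most called members and also the most tested ones. Matrix proteases, given below, had a larger share called over both directions, 16 of 30. Of 50 tested G2/M genes 22 fell, against 4.0% of all genes, and 0 rose. The median was -0.57, 42 of the 50 were lower at 48 h in all 3 series and 0 were higher in all 3, and the changes ran from -1.21 to -0.02. Without each series in turn 18 to 21 were called down, and 13 of the 22 were called in every one of these fits. KIF23, a kinesin of the cytokinetic midzone, read 383.7, 586.8 and 455.8 at 0 h and 172.4, 267.8 and 180 at 48 h, and fell by 1.21 ± 0.19 (adjusted p = 0.00053). CCNA2, cyclin A2, fell by 0.99 ± 0.165 (adjusted p = 0.00085), from 2095, 1479 and 1949 to 764.1, 932.7 and 1080. MKI67, the proliferation antigen Ki-67, fell by 0.96 ± 0.17 (adjusted p = 0.0014), from 903.4, 1031 and 1186 to 616.5, 453 and 536.7. All 3 genes were lower on every 48 h array than on any 0 h array. The kinesin KIF20A fell by 1.13 ± 0.19 (adjusted p = 0.001), ASPM, a spindle pole protein, by 0.96 ± 0.16 (0.00074), TOP2A, topoisomerase II alpha, by 0.89 ± 0.16 (0.0015), ANLN, anillin, by 0.86 ± 0.15 (0.0013) and the kinase AURKA by 0.68 ± 0.155 (0.01). KIF20B fell by 0.97 ± 0.25 (adjusted p = 0.02), and by 0.52 without the untreated series (adjusted p = 0.3). Averaged values were -0.01 for KIF20B (adjusted p = 0.99) and -0.54 for AURKA (0.17), and unshared ones -0.92 for KIF23 (0.071) and -0.47 for AURKA (0.75).

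The window before KIF23 is shown because it holds both elements known from mitosis genes. It lies at chr15:69414099-69414348 of GRCh38.p14 on the plus strand, and the capitals mark ATTGG, the CCAAT box read from the opposite strand, 64 to 60 bases before the start, and the CHR element TTTGAA, 55 to 50 bases before it.
KIF23: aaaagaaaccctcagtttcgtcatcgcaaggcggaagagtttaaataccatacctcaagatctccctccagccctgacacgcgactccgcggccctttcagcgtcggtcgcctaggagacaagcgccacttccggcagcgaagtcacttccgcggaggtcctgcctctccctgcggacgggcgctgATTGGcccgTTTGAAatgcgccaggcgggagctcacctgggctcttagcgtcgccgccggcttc
Of 42 mitosis genes with a window 30 held TTTGAA (71.4%), against 10.4% of all 11166 tested genes with one. CCAAT was in 29 of the 42 (69.0%) against 36.7%, and both were in 22 (52.4%) against 4.25%. The motifs do not overlap each other, and the counts describe the list, which was chosen by function with earlier results of these data known.

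Genes of DNA replication fell in 8 of 48 cases and rose in 0, with a median of -0.35, 2 of the 8 were called without each series in turn, and the difference from mitosis genes was not tested. POLD1, the catalytic subunit of polymerase delta, fell by 1.70 ± 0.35 (adjusted p = 0.0044), from 137.6, 219 and 185.6 to 79.96, 50.8 and 39.82. The transcription factor E2F2 fell by 1.11 ± 0.26 (adjusted p = 0.011), from 219.8, 224.1 and 210.5 to 98.59, 96.7 and 107.6. UHRF1, which maintains DNA methylation, fell by 0.68 ± 0.18 (adjusted p = 0.025), and by 0.37 without the full-length series (adjusted p = 0.29), and had an adjusted p of 0.068 in the averaged fit. Of 19 tested genes of the MYC network, D cyclins and cell cycle inhibitors 3 rose and 1 fell, with MXD1, an antagonist of MYC, up by 1.05 ± 0.22 (adjusted p = 0.0065). Of 15 histone genes H4C8 and H2AC6 rose by 1.33 ± 0.26 and 0.79 ± 0.17 (adjusted p = 0.0031 and 0.0078), and H1-2 fell by 0.69 ± 0.15 (0.0072), and histone genes may share probes with their close copies. The unshared value of H4C8 was 0.94 (adjusted p = 0.056).

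**Figure D4:**
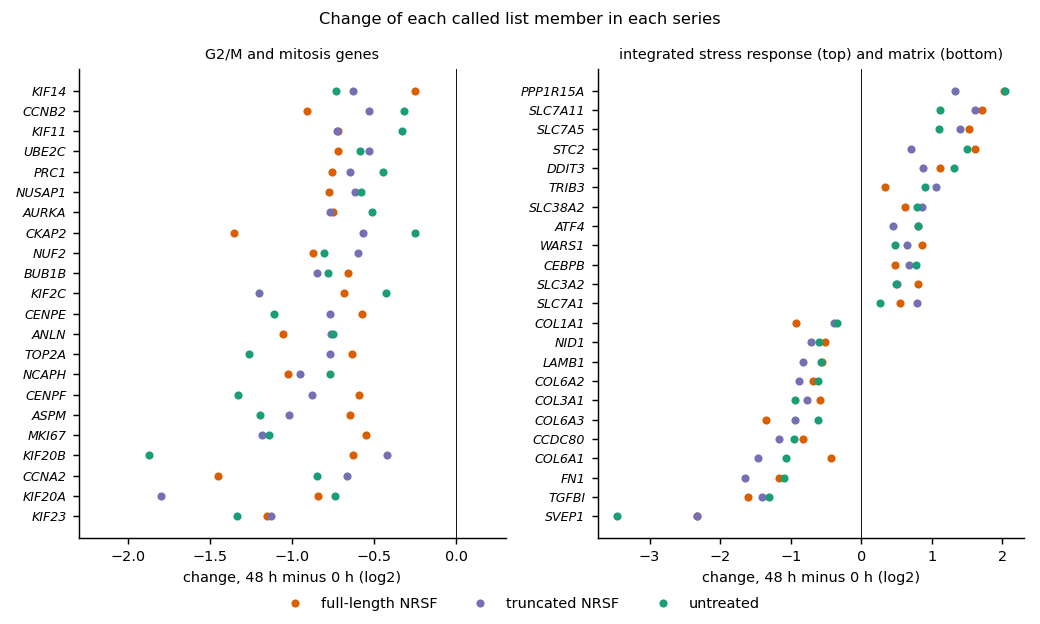
Change from 0 to 48 h (log2, horizontal axes) of each called gene in each series, with orange for full-length NRSF, purple for truncated NRSF and green for untreated cells. The left panel holds 22 mitosis genes, all below 0 in every series, and the right panel 12 integrated stress response genes above 0 and 11 matrix genes below 0.

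Collagens and matrix proteins fell in 11 of 32 cases and rose in 0, with a median of -0.50, and 7 of the 11 were called without each series in turn. Averaged, 6 of 32 fell, and on unshared probe sets 5 of 26. TGFBI, a matrix protein induced by TGF-beta, fell by 1.44 ± 0.15 (adjusted p = 6.6e-06), from 1499, 1510 and 1850 to 491.6, 572.3 and 745.5. The 3 chains of collagen VI fell together, with COL6A1 at 690.1, 1034 and 882.4 before and 513.5, 375.4 and 419.9 after, a fall of 0.99 ± 0.19 (adjusted p = 0.0026). COL6A3 fell by 0.97 ± 0.17 (adjusted p = 0.0015) and COL6A2 by 0.73 ± 0.15 (0.0048). COL3A1, fibrillar collagen III, fell by 0.77 ± 0.15 (adjusted p = 0.0035), and SVEP1, a large adhesion protein, by 2.71 ± 0.50 (0.0021), from 100, 115.1 and 147.7 to 19.88, 22.85 and 13.46. None of these genes overlapped between times. FN1, fibronectin, fell by 1.30 ± 0.165 (adjusted p = 5e-05) on its brightest probe set, which may cross-hybridize, while 3 of its 7 probe sets had the opposite sign and the one without a shared-sequence suffix gave 1.00 (adjusted p = 0.56). COL1A1 fell by 0.55 ± 0.16 (adjusted p = 0.043) with overlapping times, and missed the threshold without the full-length series (0.25) and without the truncated series (0.069). Averaged values were -1.03 for COL6A1, -0.48 for COL6A2, -1.19 for SVEP1, -0.63 for FN1 and -0.44 for COL1A1 (adjusted p = 0.077, 0.11, 0.22, 0.12 and 0.29). Unshared values were -1.59 for COL6A1, -0.23 for COL6A2 and -1.03 for COL3A1 (adjusted p = 0.24, 0.85 and 0.067).

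Matrix proteases and their partners moved both ways, 10 of 30 up and 6 down, and 5 of these 16 were called without each series in turn. CEMIP, which degrades hyaluronan, rose by 1.65 ± 0.18 (adjusted p = 7.2e-06), from 1345, 720.3 and 562.9 to 3097, 3467 and 1554, after 701.5, 727.6 and 785.7 at 24 h. HAS2, which makes hyaluronan, fell by 1.66 ± 0.205 (adjusted p = 3.7e-05), from 837.9, 647.6 and 464.2 to 179.6, 222.8 and 199. For both genes the times did not overlap. MMP9, a gelatinase, rose by 1.43 ± 0.27 (adjusted p = 0.003), and MMP1, a collagenase, by 1.00 ± 0.23 (0.012), the latter missing the threshold without the full-length series (adjusted p = 0.055). MMP3 rose by 1.77 ± 0.49 (adjusted p = 0.035), and missed it without the full-length series (0.059) and without the truncated series (0.27). LOXL1, a crosslinker of elastin, fell by 1.14 ± 0.25 (adjusted p = 0.0079), and by 0.85 without the truncated series (adjusted p = 0.07).

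**Figure D5:**
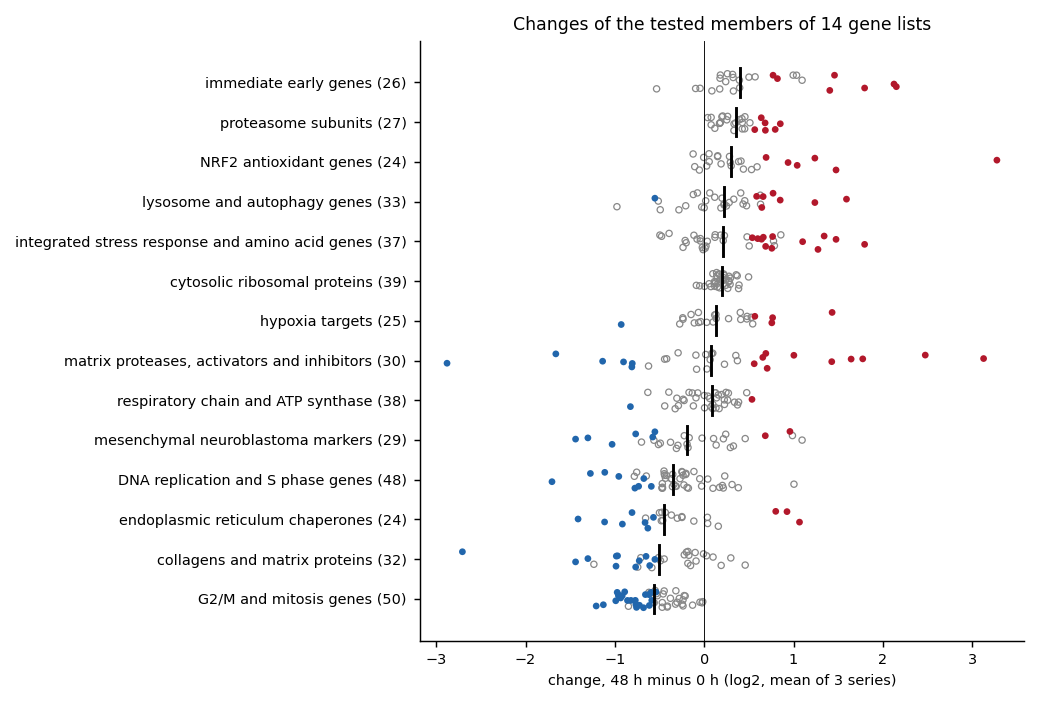
Change from 0 to 48 h (log2, mean of 3 series, horizontal axis) of every tested member of 14 gene lists, with the number tested in brackets. Filled points are called genes, open points are not called and the black bar is the list's median, which runs from -0.57 for mitosis genes to 0.40 for immediate early genes.

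The markers of the line's own state did not move as blocks. The sympathoadrenal markers held 4 falls and 0 rises among 23 tested genes (median change -0.02). The summed signal of the 28 markers with a probe set went from between 9814 and 10510 to between 6460 and 6854. Most of that drop lay in the bright genes SOX11, RET and SOX4. SOX11, an embryonic neural factor, fell by 1.96 ± 0.17 (adjusted p = 4.1e-07), from 1573, 1163 and 1132 to 333.7, 301.2 and 352.8. RET, the receptor for GDNF ligands, fell by 1.67 ± 0.19 (adjusted p = 1.8e-05), from 1162, 1150 and 727.2 to 303.3, 278.7 and 360.4. SOX4, a related factor, fell by 0.915 ± 0.16 (adjusted p = 0.0011), with an averaged value of -0.69 (0.1). In each the times did not overlap, while GATA3 stood at 1627 to 1836 at 48 h. Mesenchymal markers fell in 6 of 29 cases and rose in 2, with summed signals of 49470 to 57650 and 45540 to 52660. The falls include FN1, COL1A1, COL3A1 and TGFBI, already counted in the matrix list. The rises include BHLHE41, which also counts among the circadian clock genes below. Of the 8 called mesenchymal markers 4 were called without each series in turn. SNAI2, the factor Slug, rose by 0.96 ± 0.16 (adjusted p = 0.00089), from 706, 497.5 and 633.9 to 1289, 1191 and 1069. TWIST1 fell by 0.58 ± 0.16 (adjusted p = 0.033), and by 0.47 without the full-length series (adjusted p = 0.18) and 0.59 without the untreated series (adjusted p = 0.08).

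Most markers of other cell types exceeded the filter signal of 17.95 on some array: 4 of 13 epithelial, 2 of 13 blood, 1 of 12 endothelial and 0 of 10 Schwann cell and melanocyte markers were at or under it on all 6 arrays. Of 13 epithelial markers KRT14 and ESRP1 were at the floor on all 6 arrays and EPCAM read at most 17.88, whereas KRT18, keratin 18, rose by 0.90 ± 0.16 (adjusted p = 0.0014) on a probe set that may cross-hybridize, from 2382, 3670 and 3544 to 5432, 6068 and 6076. KRT18 carried most of the summed epithelial signal, which went from 2699 to 4028 up to 5850 to 6511. Blood markers summed to 242 to 297.8 at 0 h and 392.4 to 463.3 at 48 h over 13 genes, with NKG7 at the floor on all 6 arrays. PTPRC, the leukocyte antigen CD45, was called up at 1.05 ± 0.30 (adjusted p = 0.04), from 57.78, 74.56 and 106.9 to 134.6, 175.4 and 173.5, but not in any fit of 2 series (adjusted p = 0.11, 0.17 and 0.051), and its averaged value was 0.40 (0.5). Endothelial markers summed to 211.7 to 345 and 326.9 to 386.6, and Schwann cell and melanocyte markers to 300.9 to 387.9 and 344.8 to 413.6, with 0 called in each. The brightest of these were PECAM1, an endothelial adhesion molecule, at up to 184.6, MITF, the melanocyte factor, at 74.01 to 161.1, and EDNRB, an endothelin receptor, at 65.55 to 204.9. Their part in the other results was not tested.

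NRSF itself is the product that both constructs carry. REST read 171.1, 162 and 177.2 at 0 h and 273.5, 341.6 and 260.3 at 48 h, so it was higher in untreated cells too. Its rise of 0.77 ± 0.22 (adjusted p = 0.04) was lost without the full-length series (adjusted p = 0.071) and without the truncated series (0.22), and of its 3 probe sets 1 was called and 1 had the opposite sign, with an averaged value of 0.40 (adjusted p = 0.64). The list of NRSF corepressors includes REST itself. Of its 27 tested genes 3 rose, which were REST, ZNF217 and SAP18, and 3 fell. HMG20B, which works with LSD1 and CoREST on chromatin, fell by 2.47 ± 0.28 (adjusted p = 1.3e-05), from 279.2, 367.9 and 278.9 to 64.38, 50.77 and 51.18, with no overlap. CTDSPL, a small phosphatase recruited by NRSF, fell by 1.29 ± 0.33 (adjusted p = 0.02), and by 0.965 without the full-length series (0.11). The averaged value of CTDSPL was -0.55 (adjusted p = 0.35) and the unshared one of HMG20B -1.96 (0.18). Only HMG20B of these 6 was called without each series in turn.

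Of 80 known RE1 target genes 46 passed the filter, and 3 rose and 2 fell, which at 5 of 46 is near the 7.93% of all genes called. NPY, neuropeptide Y, rose by 1.70 ± 0.21 (adjusted p = 3.4e-05), from 139, 286.7 and 356.9 to 750.3, 707.1 and 919.8. FGF14, an intracellular regulator of sodium channels, fell by 1.56 ± 0.27 (adjusted p = 0.0012), from 226.4, 246.5 and 255.8 to 60.74, 110 and 84.03, and PTPRN2, a protein of dense core vesicles, by 1.06 ± 0.225 (0.0064). The times did not overlap in these 3 genes. INA, a neuronal intermediate filament, rose by 0.97 ± 0.28 (adjusted p = 0.04), and VGF, a secreted neuropeptide precursor on a probe set that may cross-hybridize, by 0.77 ± 0.22 (0.037). Both missed the threshold without the full-length series (adjusted p = 0.19 and 0.26) and without the truncated series (0.16 and 0.082). Of 36 neuronal cytoskeleton and axon genes 3 rose and 4 fell, with EPHA2, an ephrin receptor, up by 0.95 ± 0.18 (adjusted p = 0.0024) and PLXNA2, a semaphorin receptor, down by 0.96 ± 0.18 (0.0019). Averaged values were -0.84 for FGF14, 0.77 for VGF and -0.705 for PLXNA2 (adjusted p = 0.13, 0.065 and 0.073).

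Of 25 hypoxia targets 4 rose and 1 fell, with a median of 0.13, against 7.93% of all genes called either way. ADM, adrenomedullin, rose by 1.43 ± 0.18 (adjusted p = 4.8e-05) and VEGFA by 0.77 ± 0.15 (0.0036), and CA12, a carbonic anhydrase, fell by 0.93 ± 0.18 (0.0029), with an averaged value of -0.265 (0.44). Of 23 glycolytic enzymes and glucose transporters 0 were called, with a median of 0.17. The 39 cytosolic ribosomal proteins also had 0 calls, with a median of 0.20, and their medians by series were -0.10, 0.18 and 0.44. Respiratory chain genes had 1 of 38 up and 1 down, and cholesterol and fatty acid synthesis 1 of 25 up and 2 down. Interferon response genes had 2 of 29 up, with OASL, an antiviral protein, at 1.81 ± 0.30 (adjusted p = 0.00081). Genes of the NF-kB list had 1 of 21 up and 1 down, p53 targets 2 of 22 up and 1 down, Notch genes 1 of 16 each way, YAP and SRF targets 2 of 18 up and 1 down, ribosome biogenesis 1 of 31 up, retinoid genes 1 of 15 up, metallothioneins 1 of 9 down and the BCL2 family 0 of 14. In the NF-kB list CYLD, a deubiquitinase, rose by 0.93 ± 0.21 (adjusted p = 0.01), was lost without the full-length series (0.16) and gave -0.09 on a probe set without a shared-sequence suffix, and its averaged value was 0.64 (0.13).

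Of the 15 largest falls 14 were in dim genes, the exception being HMG20B. SVEP1, given above, was among them, and RASA3, a regulator of Ras and Rap, fell by 2.64 ± 0.53 (adjusted p = 0.0042). RASA3 read 140.7, 163.1 and 162.1 at 0 h and 10.11, 12.94 and 118.5 at 48 h, so nearly all of the fall was in the cultures with a construct, and the difference between series was not tested. The noncoding RNA LINC03095 fell by 2.75 ± 0.59 (adjusted p = 0.0065), from 88.84, 106 and 120.5 to 38.29, 11.71 and 8.388. ADAMTS2, which trims procollagen, fell by 2.88 ± 0.65 (adjusted p = 0.0092), from 94.38, 81.44 and 69.19 to 12.15, 4.363 and 13.82, and stood at the threshold without the truncated series (adjusted p = 0.05). RBP7, a retinol-binding protein, and ARHGEF19 were at the floor on all 48 h arrays. Their mean changes, measured down to the floor, were -2.83 ± 0.80 and -2.81 ± 0.80 (7.11-fold and 7.01-fold, adjusted p = 0.038 and 0.039). In untreated cells the changes were -2.23 and -2.60. ARHGEF19 was not called in any fit of 2 series (adjusted p = 0.078, 0.15 and 0.077), and RBP7 was lost without the full-length and truncated series (0.096 and 0.18). The others of the 15 (PALMD, FBXL13, PRKCD, HSPG2, ZSCAN16-AS1, PDZK1IP1, SLC16A9 and PDE11A) changed by -2.558 to -2.108, and each missed the threshold without at least 1 series, with an adjusted p of 0.13 for SLC16A9 and 0.14 for HSPG2 without the truncated series, 0.14 for PDE11A and PDZK1IP1 and 0.21 for PALMD without the full-length series, and 0.19 for FBXL13 and ZSCAN16-AS1 and 0.052 for PRKCD without the untreated series. Leaving out the truncated series also ended the call for FBXL13, ZSCAN16-AS1, PRKCD and PALMD (adjusted p = 0.1, 0.14, 0.3 and 0.11). PDE11A and HSPG2 missed the threshold whichever series was left out: PDE11A was at 0.06 without the truncated and 0.052 without the untreated series, and HSPG2 at 0.054 without the full-length and 0.19 without the untreated series. Averaged values were -1.18 for ADAMTS2, -1.53 for RASA3, -1.74 for PDZK1IP1 and -1.16 for PDE11A (adjusted p = 0.32, 0.12, 0.077 and 0.26). PALMD, PRKCD and ZSCAN16-AS1 had an adjusted p of 0.055, 0.054 and 0.058 in the averaged fit.

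Even change over the 3 series did not by itself bring a call in dim genes. SMOC1, a matricellular protein, changed by 2.37, 2.42 and 2.57 in the 3 series, but from 8.669, 4.786 and 7.664 to 44.65, 42.71 and 47.16, and was not called (adjusted p = 0.094). HHIP-AS1 changed by -2.55, -2.63 and -2.39 with all 48 h arrays at the floor (adjusted p = 0.085), and SEC61G-DT by -2.66, -2.27 and -2.86 (0.065). IL24, DIO2, HMOX1 and EMX1 were the other genes with the largest change in their least changed series among those higher at 48 h.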

How the data were processed

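The 9 samples, 1 array each, were mapped to series and time from their titles and expression labels. The authors deposited linear signal intensity values, which came from GCOS (version not given in the sources used here) per the submitters' processing notes, and scaled to a common trimmed mean as tested on the values. Signals below the 25th percentile of all values (7.959) were set to it and log2 was taken. Probe sets with a mean log2 signal over 4.166 on the 6 arrays (signal 17.95) were kept. Controls (62 of 54675 probe sets) were left out. The platform annotation named 1 gene for 41091 probe sets, several for 1801 and none for 11721, and symbols were updated through Entrez IDs for 41037.

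The main test was limma 3.58.1 (R 4.3.3; lmFit and eBayes with trend), with series as a block and Benjamini-Hochberg adjustment over 32768 probe sets. Whether the variance of single probe sets follows the mean-variance trend of the fit was not tested. Affymetrix probe sets ending in _x_at may cross-hybridize, and those ending in _s_at match more than 1 transcript. The members and the gene lists were chosen with earlier results of these data known, so no list is independent evidence of its direction, and no set test was run.

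Named genes are the 15 largest called rises and falls of the same sign in all 3 series and above the floor on all 3 arrays of at least 1 time, the 4 largest changes of each list, the 5 genes each way with the largest change in their least changed series, the 5 widest opposite changes, and REST. Other called list members named in the text, and FOS, were chosen after their values were seen. Promoter windows are RefSeq sequence (GRCh38.p14). Alternatives were all 9 arrays, no series block, quantile normalization, other floors and filters, no or robust trend, other probe set rules and each series left out. With 3 pairs, the number of arrays limits the precision.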

Additional observations from a re-analysis of the deposited data

Results flagged for a closer look

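The following values differed between series, and none of these differences was tested, since each series has 1 array per time. In 345 genes the change was 2-fold or more up in 1 series and down in another. The 5 widest of these were dim on some arrays. MYL10 changed by -1.03 with full-length NRSF, 4.004 with truncated NRSF and -2.65 in untreated cells, a gap of 6.658 on the log2 scale. In the same order ZBTB47 changed by -2.96, 2.42 and -0.85, a gap of 5.382, and CSF3R by -2.77, 2.25 and -1.30, a gap of 5.015. RNF112 changed by 1.01, -2.29 and 2.71, a gap of 4.996, and LGI1 by 2.38, -2.48 and -1.26, a gap of 4.854.

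Median changes of some lists had opposite signs in different series. For chemokines and their receptors they were -0.34, 0.28 and 0.38, a gap of 0.7249, and for NF-kB genes -0.10, -0.21 and 0.23, a gap of 0.4335. Retinoid genes had -0.02, -0.28 and 0.25, a gap of 0.533. The lists of markers of other cell types rest on 3 to 5 tested genes each. The gap was 0.8162 for epithelial, 1.5986 for endothelial and 1.396 for Schwann cell and melanocyte markers. Blood cell markers had medians of 1.16, 0.93 and -0.15, a gap of 1.3097. In all, 21 lists had medians of opposite sign in different series, and those not given here were under 0.2 on at least 1 side.

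On the 24 h arrays, which enter no comparison here, 22 genes had all 3 signals at least 2-fold above every 0 h and 48 h signal. They included JUN, a subunit of AP-1, at 2571, 2695 and 2707 against 437.5 to 965.3 at 0 h and 713.3 to 896.2 at 48 h. KLF10 read 4918, 5093 and 4911 at 24 h and BHLHE40 957.4, 1074 and 1019.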

How the results depend on the processing

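Calls depended on the variance model. Without the variance trend, and with no filter on low signals, 0 probe sets and 0 genes were called in either direction, and with all 9 arrays without the trend 3 probe sets (2 genes) were up and 0 down. With the trend, 967 genes were called from all 9 arrays, 970 with no series block (1095 with it), 1018 after quantile normalization and 964, 791 and 943 without the full-length, truncated and untreated series. Averaging a gene's probe sets gave 327 up and 323 down. The 2-fold counts in all 3 series were 79 up and 75 down with the higher floor, 62 and 62 with the stricter filter, and 423 and 491 at 1.5-fold. Selection by 2-fold gave agreement in the left-out series of 63.75%, 65.17% and 68.85%. The cause of the shifts below was not tested. List medians moved as follows. With no filter they were 0.3407 for chemokines, 0.0827 for the ERK feedback list and -0.3353 for collagens. With the stricter filter the ERK feedback list reversed to -0.0072, Notch genes were at -0.3111 and sympathoadrenal markers at -0.385. With the mean of probe sets they were 0.1254 for NF-kB genes, 0.2572 for ERK feedback, -0.3082 for chaperones of the endoplasmic reticulum, -0.0084 for p53 targets, 0.2356 for proteases, -0.0683 for mesenchymal markers and 0.2829 for the BCL2 family. Without _x_at and _s_at probe sets they were 0.2535 for IL6 and IL10 genes, 0.4623 for interferon genes, 0.0105 for ERK feedback, 0.0275 for the integrated stress response, -0.3662 for chaperones of the endoplasmic reticulum, 0.3792 for metallothioneins, 0.0464 for heat shock genes, -0.1024 for NRSF corepressors, 0.3123 for the BCL2 family and -0.5053 for epithelial markers. Leaving out each series gave 0.0263 to 0.1969 for ERK feedback, 0.2059 to 0.4407 for the integrated stress response, -0.2049 to 0.0518 for Notch genes, -0.3046 to -0.0672 for NRSF corepressors, -0.2457 to 0.1904 for IL6 and IL10 genes, -0.1127 to 0.1447 for interferon genes, -0.4252 to -0.3349 for chaperones, 0.048 to 0.2376 for hypoxia targets, 0.2584 to 0.3944 for lysosome genes, -0.2633 to -0.2041 for mesenchymal markers and 0.0166 to 0.2363 for heat shock genes. Genes that passed the test and reversed were ERN1 (-0.058), PHLDA1 (0.277) and ADAM19 (0.337) as a mean of probe sets and, without _x_at and _s_at probe sets, CYLD (-0.093), CALR (-0.204), HSPH1 (-0.223), FN1 (0.998), HSPA4 (-0.002), PSMC2 (-0.038), BHLHE41 (-0.975), SIK1 (-0.133) and TGIF1 (-1.246). Genes that did not pass also changed sign: MYL10 was at -0.095 and SLCO2A1 at 0.08 with the higher floor, CD74 at -0.164 as a mean of probe sets and MITF at 0.212 without _x_at and _s_at probe sets. Leaving out each series gave -1.842 to 1.486 for MYL10, -1.907 to 0.784 for ZBTB47, -1.869 to 0.558 for LGI1, -0.639 to 1.859 for RNF112, -2.037 to 0.471 for CSF3R, -0.132 to 1.529 for MT3, -0.4 to 1.714 for GINS4, -1.407 to 0.147 for SLCO2A1, -0.849 to 0.025 for BOK, -1.321 to 0.021 for H2AX, -0.053 to 0.279 for KRT8 and -0.733 to 0.089 for LAPTM5. Of 226 called genes that were named or in a list 138 stayed called with the mean of probe sets, 137 of 169 without _x_at and _s_at probe sets, 197 with all 9 arrays, 208 with no series block, 210 after quantile normalization, 219 with the robust trend, 224 with the higher floor, 206 of 210 with the stricter filter and 155 to 176 without a series. No filter left no call to read in a left-out series. Dim genes carry the least certain values, since signals below the floor have no order.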

Other observations

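The genes below were chosen after their values were seen. Genes of the circadian clock were called up in 5 of 16 cases and down in 0, against 3.92% and 4.0% of all genes. Of the 16, 6 were higher and 5 lower in all 3 series, with a lowest change of -1.17 and a median of 0.23. BMAL1, a core activator of the clock, rose most, by 1.88 ± 0.22 (adjusted p = 2.1e-05), from 105.8, 123.7 and 194.7 to 453.8, 572.2 and 484.5. Only BMAL1 of the 5 was called without each series in turn. RORA, NFIL3, BHLHE41 and CRY1 rose by 0.93, 0.67, 0.68 and 0.66. RORA was lost in every fit of 2 series (adjusted p = 0.17, 0.11 and 0.095), CRY1 and BHLHE41 without the full-length series (0.19 and 0.057) or the truncated series (0.13 and 0.15), and NFIL3 without the untreated series (0.086). BHLHE41 gave -0.975 on its unshared probe set (adjusted p = 0.49), and averages of probe sets were 0.365 for BHLHE41 (0.63) and 0.845 for RORA (0.27).

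RND3, an antagonist of RhoA, rose by 2.11 ± 0.16 (adjusted p = 9e-08), from 1435, 1023 and 802.4 to 4578, 4743 and 4389. IRS2, an adaptor of the insulin receptor, rose by 2.01 ± 0.195 (adjusted p = 2.5e-06) and the kinase SIK1 by 1.67 ± 0.27 (0.00065), though the unshared value of SIK1 was -0.13 (0.95) and its averaged one 0.77 (0.36). ARG2, mitochondrial arginase, read 279.5, 248.1 and 249.2 at 0 h, 295.2, 302.7 and 305.2 at 24 h and 1006, 777.9 and 521 at 48 h, a rise of 1.52 ± 0.19 (adjusted p = 3.9e-05). ODC1, the first enzyme of polyamine synthesis, rose by 1.35 ± 0.15 (adjusted p = 9.5e-06). Among genes that fell, LGR5, a receptor for R-spondins, went from 2804, 2699 and 2812 to 841.1, 923.7 and 1055, a fall of 1.57 ± 0.15 (adjusted p = 2.2e-06). HGF, hepatocyte growth factor, fell by 1.495 ± 0.16 (adjusted p = 7.2e-06) and by 0.66 as an average of its probe sets (0.051), ENPP2, autotaxin, by 1.52 ± 0.23 (0.00032), and VCAM1, an adhesion molecule, by 1.13 ± 0.18 (0.00057). These 9 genes were called without each series in turn.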
